A study of Mus musculus with 11 samples.

Results

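The miR-17-92 cluster is a group of microRNAs cut from 1 long transcript, Mir17hg. It was followed here through 9 mature members, mmu-miR-17-5p, mmu-miR-17-3p, mmu-miR-18a-5p, mmu-miR-18a-3p, mmu-miR-19a-3p, mmu-miR-20a-5p, mmu-miR-20a-3p, mmu-miR-19b-3p and mmu-miR-92a-3p, written without the species prefix from here on. Members were every row of the deposited count table that carried one of these names. They filled 11 of its 2128 rows and made up 9 of its 1978 distinct miRNAs, because miR-19b-3p and miR-92a-3p each have a row for either of their hairpins. All 11 rows passed the filter on low counts.

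Small RNA was sequenced from CD8+ T cells of the spleen, taken from mice that the labels call dirty or clean. Cells were sorted as CD4-, CD8+, CD49d low and GFP+, and split by CD44 into stamped VM (CD44 high, virtual memory) and stamped TN (CD44 low, true naive) cells. Virtual memory cells are CD8+ T cells that look like memory cells without having met a foreign antigen. The 4 groups were Dirty_VM with 3 libraries, Dirty_TN with 3, Clean_VM with 3 and Clean_TN with 2, numbered 2 and 3. All 4 groups share the GFP+ gate, and the labels give no strain, age, GFP allele or sex and define neither "dirty" nor "stamped". Whether cells of several mice were pooled is not stated, nor whether replicates came from separate mice, so p-values measure only the spread between these libraries.

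The cluster is transcribed as 1 primary RNA, from which hairpins are cut and then trimmed to a strand from the 5p or the 3p arm. Bases 2 to 8 of the mature strand, the seed, guide it to messenger RNAs. In lymphocytes the cluster is known as a promoter of proliferation and survival that represses Bcl2l11 (Bim). It is induced by T cell activation, and mice with extra copies in lymphocytes develop lymphoproliferation.

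The mature sequences are shown because the members are described by seed. They were taken from RefSeq on GRCm38.p6, where all 9 names matched, and are written 5′ to 3′ with the seed in capitals.
miR-17-5p: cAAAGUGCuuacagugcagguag
miR-20a-5p: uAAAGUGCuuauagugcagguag
miR-18a-5p: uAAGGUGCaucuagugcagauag
miR-19a-3p: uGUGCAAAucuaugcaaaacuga
miR-19b-3p: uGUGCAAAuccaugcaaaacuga
miR-92a-3p: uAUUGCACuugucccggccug
These 6 strands carry 4 seeds. miR-17-5p and miR-20a-5p share AAAGUGC and differ at C1U and C12U, counted from the 5′ end with the base of miR-17-5p first. miR-18a-5p has AAGGUGC. miR-19a-3p and miR-19b-3p share GUGCAAA and differ by U11C, with the base of miR-19a-3p first. miR-92a-3p has AUUGCAC, a seed with no counterpart in the rest of the cluster. The other 3 members come from the opposite arm of their hairpins.
miR-17-3p: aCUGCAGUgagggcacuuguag
miR-18a-3p: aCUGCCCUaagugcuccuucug
miR-20a-3p: aCUGCAUUacgagcacuuaaag

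In GENCODE M21, which uses the same build, Mir17hg is a lincRNA gene on the plus strand at chr14:115042879-115046727. Its 6 hairpins lie in exon 2, within the 836 bases of chr14:115043671-115044506. miR-19b-3p and miR-92a-3p also come from a pair of hairpins outside the cluster, on the minus strand of chromosome X. No same-strand exon of a gene other than a miRNA was found around them in that annotation. Introns were not searched. Mir19b-2 is at chrX:52741983-52742066 and Mir92-2 at chrX:52741838-52741928. The 4 hairpins are printed with the member in capitals, to show where their rows can and cannot be told apart.
Mir92-1: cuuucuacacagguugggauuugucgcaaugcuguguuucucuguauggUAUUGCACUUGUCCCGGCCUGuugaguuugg
Mir92-2: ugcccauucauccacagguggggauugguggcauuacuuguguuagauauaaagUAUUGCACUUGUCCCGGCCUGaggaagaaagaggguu
Mir19b-1: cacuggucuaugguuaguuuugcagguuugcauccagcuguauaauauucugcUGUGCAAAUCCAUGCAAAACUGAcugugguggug
Mir19b-2: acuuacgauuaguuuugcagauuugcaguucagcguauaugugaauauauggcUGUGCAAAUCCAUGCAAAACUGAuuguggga
The capitals are identical within each pair, so a read of the mature strand alone cannot be assigned to 1 hairpin. The bases after the mature strand differ. The deposited counts of miR-19b-3p were nearly equal on its rows, with a mir-19b-1 to mir-19b-2 ratio of 0.977 to 1.004 over the 11 libraries, and are 1 signal here. Those of miR-92a-3p were not, with 4.1 to 7.0 times as many counts on the mir-92a-1 row. How reads were divided between the rows is not given in the sources used here.

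**Figure D1:**
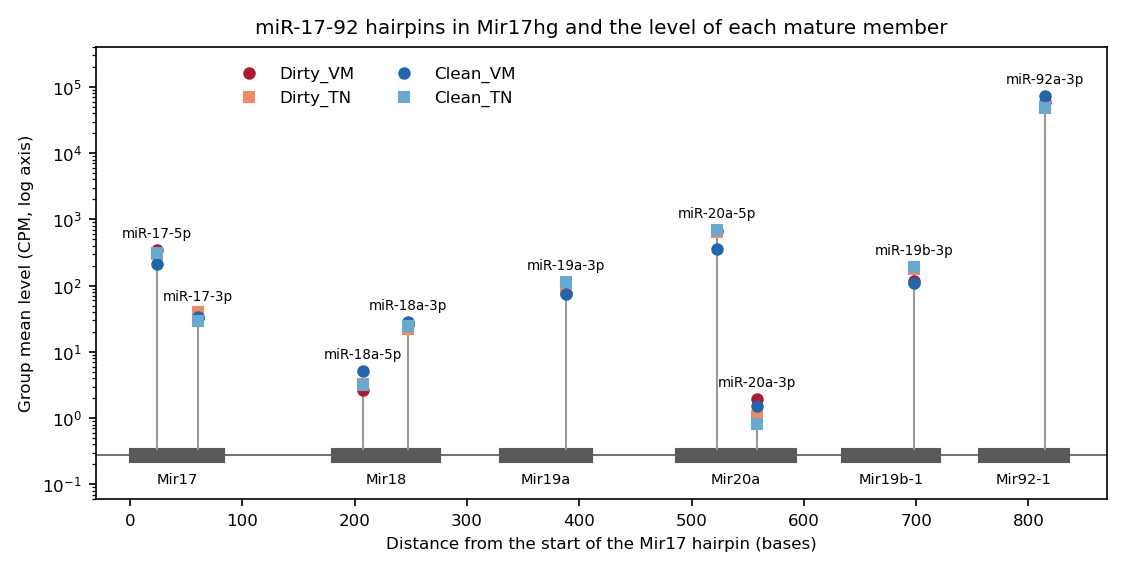
The 6 hairpins of Mir17hg (grey boxes) are drawn to scale by distance in bases from the start of Mir17, and each point is a group mean level in CPM on a log axis, set above the middle of its mature strand; for miR-19b-3p and miR-92a-3p it is the row of the chromosome 14 hairpin. miR-92a-3p, at the far end, stands between 48019 and 73825 CPM, while miR-20a-3p stands between 0.802 and 1.96 CPM.

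The libraries held 2614396 to 16312004 estimated counts each, so that a row without counts could still stand at 0.186 CPM in the deepest and 1.16 CPM in the shallowest library (3 counts as the floor, counting error only). CPM, counts relative to library size, is given after TMM scaling, the trimmed mean method of edgeR. There were 5 shallow libraries of at most 4116012 counts (Dirty_VM 1 and 2, Dirty_TN 2, Clean_VM 1, Clean_TN 3) and 6 deep ones of at least 9399645. After subtraction of group means, pairs of libraries of the same depth correlated at r of 0.041 to 0.554 and pairs of different depth at -0.649 to 0.012, so values by depth are given for the members described at length. The lymphocyte miRNA miR-150-5p stood at 66249 to 134280 CPM in every library. The erythroid miR-451a stood at 5.37 to 28.1 CPM and the myeloid miR-223-3p at 0.257 to 3.12 CPM. Some other markers of other cells stood higher. Hepatocyte miR-122-5p was at 850.6 to 2737.9 CPM, miR-200c-3p at 107.5 to 177.3 CPM and stromal miR-143-3p at 31.6 to 94.1 CPM. Endothelial miR-126a-3p reached 50.3 CPM. The markers miR-141-3p, miR-126a-5p and miR-145a-5p reached no more than 8.08, 3.25 and 1.79 CPM. miR-21a-5p, an activation miRNA, was 1.88 ± 0.13 higher on the log2 scale in VM than in TN cells (SE, edgeR adjusted p = 6.487e-07), and miR-181a-5p, which raises T cell receptor sensitivity, fell by 1.69 ± 0.15 (adjusted p = 4.663e-06).

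Members differed in level over several orders of magnitude. Rows of the cluster's own hairpins held 6.09% ± 0.50 of all counts in Dirty_VM (SD, n = 3), 4.97% ± 0.41 in Dirty_TN (n = 3), 7.07% ± 0.47 in Clean_VM (n = 3) and 5.44% ± 0.08 in Clean_TN (n = 2). With the chromosome X rows of miR-19b-3p and miR-92a-3p, the member rows together held 7.10% ± 0.54 of all counts in Dirty_VM (SD, n = 3), 5.99% ± 0.35 in Dirty_TN (n = 3), 8.38% ± 0.57 in Clean_VM (n = 3) and 6.52% ± 0.21 in Clean_TN (n = 2). Between 96.2% and 99.2% of the counts of all member rows were miR-92a-3p. By the mean of the group means the mir-92a-1 row of miR-92a-3p ranked 5 and its mir-92a-2 row 21 among the 545 rows tested. miR-20a-5p ranked 87, miR-17-5p 102, miR-19b-3p 123 and 124, miR-19a-3p 143, miR-17-3p 184, miR-18a-3p 200, miR-18a-5p 352 and miR-20a-3p 445. Small RNA libraries capture sequences with unequal efficiency, so an order between miRNAs is one of counts and not of molecules. These are bulk samples, in which fewer cells with a miRNA and less of it per cell cannot be told apart.

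The VM against TN comparison, averaged over dirty and clean mice, asks which miRNAs separate the CD8+ T cell subsets. miR-92a-3p on its mir-92a-1 row was higher in VM cells, by 0.42 ± 0.13 on the log2 scale (SE, edgeR quasi-likelihood adjusted p = 0.0351). miR-19b-3p fell by 0.72 ± 0.24 and 0.71 ± 0.24 on its rows (adjusted p = 0.0482 for each). The other 8 rows did not pass. With 1 row higher and 2 lower, 3 of the 11 member rows passed, or 27.3%, against 23.7% of the 545 rows (11.4% higher and 12.3% lower), which is near the background. Of the 3, 2 were the rows of miR-19b-3p, nearly 1 signal, and with rows summed 1 of 9 miRNAs passed, miR-19b-3p. The median log2 change of the members was -0.05, against 0.09 over all rows. None of the 11 rows had libraries apart in the same direction in both environments, as 16.9% of all rows did (7.52% higher and 9.36% lower). The count of 3 rows became 0 without Clean_VM 3, and 1 without Dirty_TN 3 or without Dirty_VM 3. Of all rows, 119, 132 and 101 passed in these fits, against 129 with all libraries. Without Clean_TN 2, which leaves a single Clean_TN library, the log2 change was -0.63 for the mir-19b-1 row and 0.40 for the mir-92a-1 row.

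In clean mice alone 1 of 11 member rows passed, miR-92a-3p on its mir-92a-1 row, against 17.4% of all rows (9.72% higher and 7.71% lower). Libraries were apart in 5 member rows, against 52.7% of all rows. Of these, 3 were higher in Clean_VM, both rows of miR-92a-3p and that of miR-20a-3p (28.3% of all rows), and 2 were lower, miR-17-5p and miR-20a-5p (24.4% of all rows). Without Clean_TN 2, Clean_TN 3, Clean_VM 2 or Clean_VM 3 no member row passed. Without Clean_VM 1 there were 5, those of miR-19a-3p, miR-19b-3p and miR-20a-5p lower and the mir-92a-1 row of miR-92a-3p higher. Of all rows, 98 passed without Clean_VM 1, 73 without Clean_VM 2 and 61 without Clean_VM 3, against 95 with all libraries.

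In dirty mice alone no member row passed by edgeR, DESeq2 or limma-voom, against 12.1% of all rows passing by edgeR (6.24% higher and 5.87% lower). No member row had an unadjusted p under 0.05 by edgeR, where 136 of the 545 rows did. Libraries were apart in 4 member rows, against 30.5% of all rows, and all 4 were lower in Dirty_VM, miR-17-3p, miR-19a-3p and both rows of miR-19b-3p (13.6% of all rows; 16.9% of all rows were apart and higher).

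miR-92a-3p, which targets Bcl2l11, was the most abundant member in every library. On its mir-92a-1 row it had 49388, 68040 and 59003 CPM in Dirty_VM, against 55628, 55470 and 39945 CPM in Dirty_TN. The Clean_VM libraries had 70593, 74039 and 76841 CPM, against 47121 and 48917 CPM in Clean_TN. The clean groups were apart and the dirty groups overlapped, with Dirty_VM 1 below Dirty_TN 1 and 2. In clean mice the log2 change was 0.62 ± 0.20 (SE, edgeR adjusted p = 0.0466). In dirty mice it was 0.22 ± 0.17 (adjusted p = 0.471), and the difference between the environments did not pass either (adjusted p = 0.43).

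As a plain share of library counts, without TMM scaling, the same row held 5.42%, 6.39% and 6.09% in Dirty_VM, against 4.64%, 5.36% and 4.54% in Dirty_TN. It held 6.43%, 7.19% and 7.35% in Clean_VM, against 5.32% and 5.26% in Clean_TN. On this scale VM and TN libraries were apart in both environments, though the share of all rows apart was not computed on it. The closest values were 5.42% against 5.36%, in dirty mice. Scaling to library totals gave a log2 change of 0.35 (edgeR adjusted p = 0.0146) averaged over dirty and clean mice, 0.30 (adjusted p = 0.152) in dirty mice and 0.40 (adjusted p = 0.063) in clean mice. In clean mice that scaling moved the median log2 change of all rows to -0.13, against 0.08 with TMM, so relative to the median row the change was similar on either scale.

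The mir-92a-2 row of miR-92a-3p had 8349, 9726 and 11184 CPM in Dirty_VM, against 13569, 9523 and 8319 CPM in Dirty_TN. The Clean_VM libraries had 12920, 14252 and 14067 CPM, against 10154 and 9002 CPM in Clean_TN. Its libraries overlapped in dirty mice and were apart in clean mice, as on the mir-92a-1 row. Its log2 change was 0.21 ± 0.15 on average (SE, edgeR adjusted p = 0.331) and 0.52 ± 0.22 in clean mice (adjusted p = 0.127). With the rows of each miRNA summed, miR-92a-3p had 0.35 on average (adjusted p = 0.0694) and 0.58 in clean mice (adjusted p = 0.0565), so neither call held for the miRNA as a whole.

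The averaged call of miR-92a-3p on its mir-92a-1 row was lost under 6 of 12 other settings, beside those that leave out 1 library, and the clean call under 8 of 13. On average these included no filter beyond 1 count (edgeR adjusted p = 0.0907) and blocks for the replicate number (adjusted p = 0.0538) or for the number within each environment (adjusted p = 0.0815). In clean mice they included the same filter (adjusted p = 0.122), the same blocks (adjusted p = 0.0818 and 0.11) and a fit with a term for depth class (adjusted p = 0.0559). The calls also ended with some libraries left out. Averaged over dirty and clean mice, its adjusted p was 0.101 without Clean_TN 2, 0.147 without Clean_TN 3, 0.0658 without Clean_VM 2, 0.0875 without Clean_VM 3 and 0.0882 without Dirty_VM 2. In clean mice alone it was 0.236 without Clean_TN 2, 0.254 without Clean_TN 3, 0.12 without Clean_VM 2 and 0.169 without Clean_VM 3. Among the shallow libraries the averaged log2 change was 0.18 (edgeR adjusted p = 0.669), and among the deep ones 0.45 (adjusted p = 0.321), with 1 and 2 residual degrees of freedom.

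miR-19b-3p is the member that, with miR-19a-3p, carries much of the lymphoma-promoting activity of the cluster. On its mir-19b-1 row it had 113.7, 146.3 and 91.7 CPM in Dirty_VM, against 168.7, 150.3 and 214.5 CPM in Dirty_TN. The values in Clean_VM were 178.7, 79.2 and 70.1 CPM, against 219.3 and 166.9 CPM in Clean_TN. The dirty groups were apart, with VM lower, and in clean mice only Clean_VM 1 reached the range of Clean_TN. The log2 change was -0.61 ± 0.33 in dirty mice (SE, edgeR adjusted p = 0.273) and -0.83 ± 0.36 in clean mice (adjusted p = 0.136).

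The averaged call of miR-19b-3p lay close to the threshold. Leaving out 1 library ended it in 4 cases, at an adjusted p of 0.16 without Clean_TN 2, 0.0539 without Clean_VM 3, 0.0604 without Dirty_TN 3 and 0.0742 without Dirty_VM 3 on the mir-19b-1 row. By depth, the averaged log2 change of miR-19b-3p was -0.18 among the shallow libraries and -1.37 among the deep ones. Either class leaves a single library in some groups, and whether the change differs between the classes was not tested.

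miR-19a-3p had 83.9, 87.1 and 63.2 CPM in Dirty_VM, against 99.7, 88.0 and 88.6 CPM in Dirty_TN. The values in Clean_VM were 107.9, 66.7 and 52.5 CPM, against 101.8 and 126.2 CPM in Clean_TN. As for miR-19b-3p, the dirty groups were apart with VM lower, and Clean_VM 1 alone overlapped Clean_TN. Its averaged log2 change of -0.42 ± 0.19 did not pass (SE, edgeR adjusted p = 0.137). It was -0.25 among the shallow and -0.72 among the deep libraries, passing in neither. No tested row of another miRNA carried the GUGCAAA seed.

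**Figure D2:**
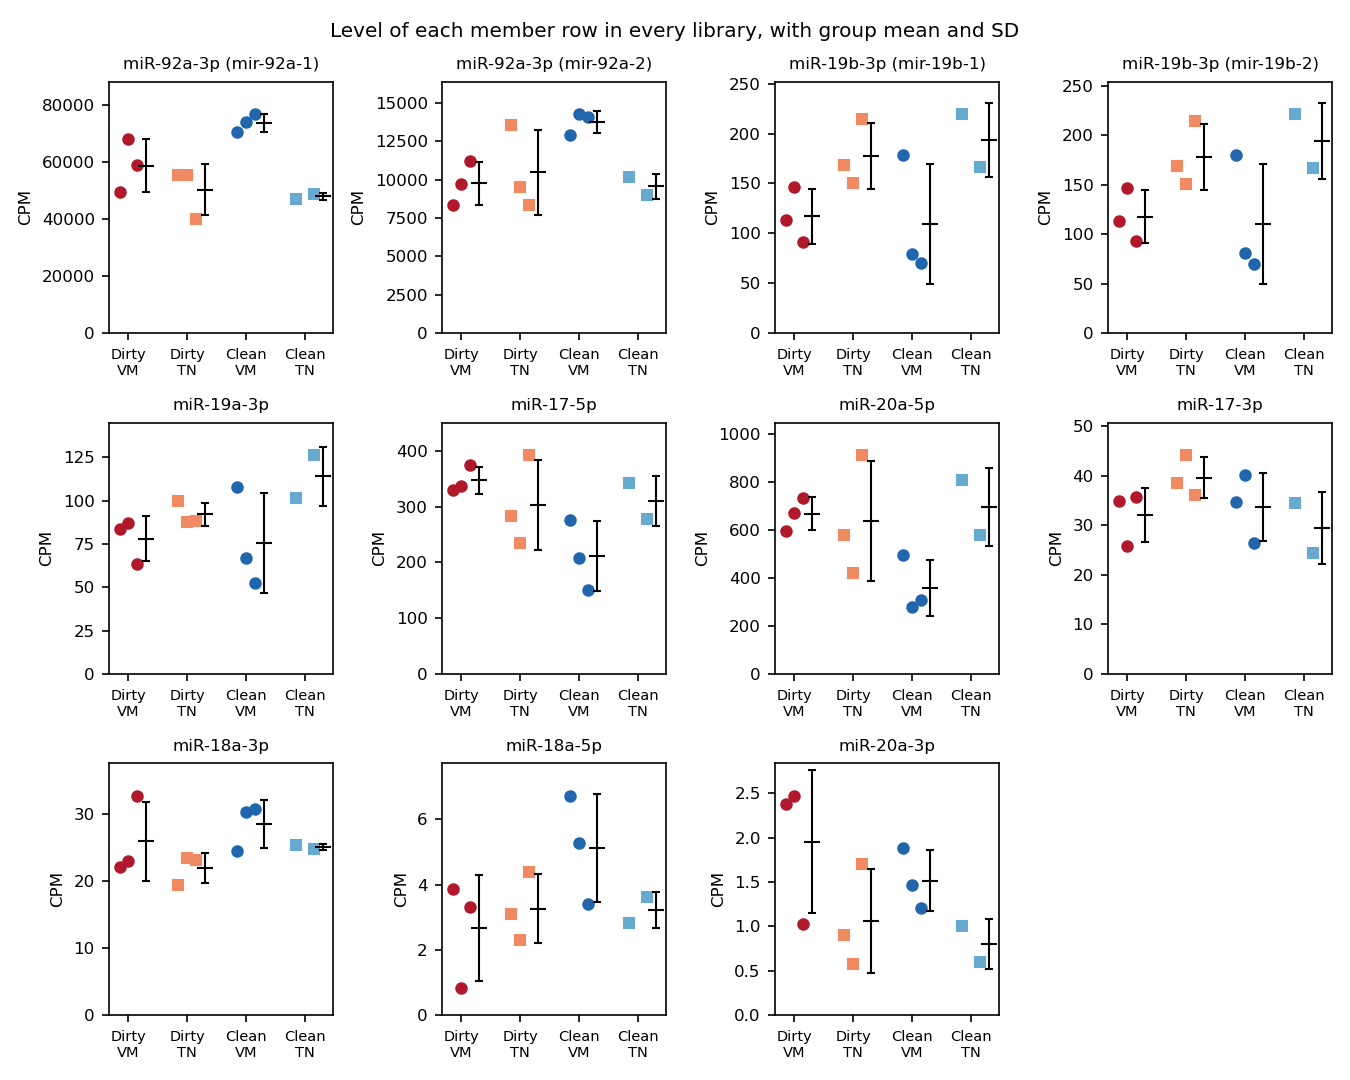
Each panel is a member row, each point a library in CPM on a linear axis that starts at 0, with groups in the order Dirty_VM, Dirty_TN, Clean_VM, Clean_TN, and the black mark is the group mean with its SD (n = 3, 3, 3 and 2). miR-20a-5p is lowest in Clean_VM, where it averages 359.7 CPM against 695.6 CPM in Clean_TN, and miR-92a-3p on the mir-92a-1 row is highest there, at 73825 CPM against 48019 CPM in Clean_TN.

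miR-17-5p and miR-20a-5p repress Cdkn1a and E2f1 among other cell cycle genes. miR-17-5p had 329.6, 337.8 and 374.6 CPM in Dirty_VM, against 283.2, 234.2 and 392.0 CPM in Dirty_TN. In Clean_VM it had 275.3, 207.4 and 150.6 CPM, against 342.4 and 278.0 CPM in Clean_TN. The dirty groups overlapped, and every Clean_VM library lay below both Clean_TN libraries, the closest pair being 275.3 and 278.0 CPM. The log2 change was 0.20 ± 0.24 in dirty mice (SE, edgeR adjusted p = 0.698) and -0.56 ± 0.27 in clean mice (adjusted p = 0.18). The averaged log2 change of -0.18 ± 0.18 (SE, edgeR adjusted p = 0.491) was 0.13 among the shallow and -0.45 among the deep libraries, passing in neither.

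miR-20a-5p had 598.3, 672.6 and 736.2 CPM in Dirty_VM, against 578.7, 421.1 and 912.2 CPM in Dirty_TN. In Clean_VM it had 494.3, 278.0 and 306.7 CPM, against 810.7 and 580.4 CPM in Clean_TN. The pattern was that of miR-17-5p, with overlap in dirty mice and Clean_VM below Clean_TN. In clean mice the log2 change was -0.95 ± 0.32 (SE, edgeR adjusted p = 0.0568), and in dirty mice 0.07 ± 0.29 (adjusted p = 0.936).

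The clean value of miR-20a-5p stood just outside the threshold and crossed it under 10 of the other 13 settings, at an adjusted p of 0.0147 by DESeq2 and 0.0479 by limma-voom. It was -0.46 among the shallow and -1.51 among the deep libraries. Either class leaves a single Clean_TN library, and a difference between the classes was not tested. The VM minus TN difference of miR-20a-5p in dirty mice less that in clean mice was 1.02 ± 0.43 (SE, edgeR adjusted p = 0.244). For miR-17-5p it was 0.75 ± 0.37 (adjusted p = 0.307). Without Dirty_TN 3 these became 1.56 (edgeR adjusted p = 0.0105) and 1.17 (adjusted p = 0.0244). Both passed the threshold only with that library left out, among the 11 left out in turn. In that fit 73 of all rows passed, against 0 with all libraries.

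miR-18a-5p was scarce, with 2 to 55 counts per library. It had 3.87, 0.822 and 3.30 CPM in Dirty_VM, against 3.08, 2.31 and 4.39 CPM in Dirty_TN. In Clean_VM it had 6.71, 5.27 and 3.41 CPM, against 2.82 and 3.61 CPM in Clean_TN. Groups overlapped in both environments, and the averaged log2 change was 0.21 ± 0.36 (SE, edgeR adjusted p = 0.707).

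**Figure D3:**
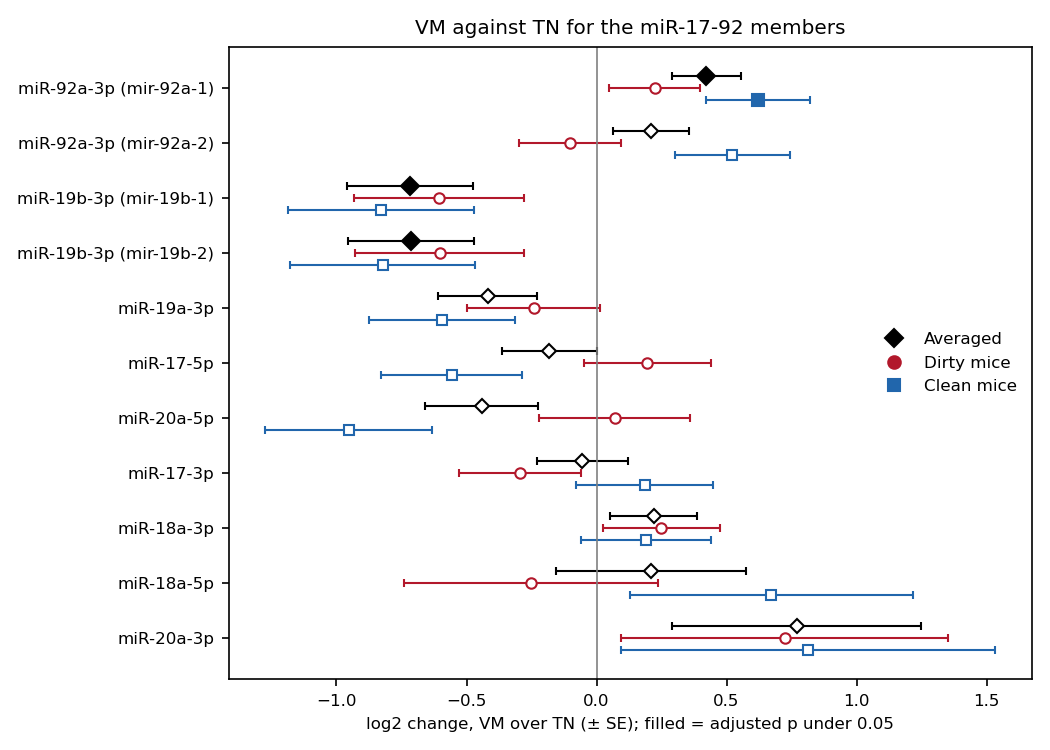
Points are log2 changes of VM over TN cells with their SE, averaged over environments (diamonds), in dirty mice (circles) and in clean mice (squares), and filled points have an adjusted p under 0.05. The filled points are the mir-92a-1 row of miR-92a-3p, averaged and in clean mice, and the averaged values of both rows of miR-19b-3p.

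Some markers of other cells also differed between the CD44 gates. Of 10 such miRNAs listed, 9 were tested and 3 were called higher in VM cells on average: endothelial miR-126a-3p by 0.87 ± 0.24 (SE, edgeR adjusted p = 0.0208), stromal miR-143-3p by 0.80 ± 0.18 (adjusted p = 0.00577) and hepatocyte miR-122-5p by 0.76 ± 0.26 (adjusted p = 0.0482). In clean mice edgeR and limma-voom called 1, for edgeR miR-143-3p, and DESeq2 called 3, all higher. In dirty mice none was called by edgeR, DESeq2 or limma-voom, and 1 had an unadjusted p under 0.05 by edgeR. Of all 545 rows edgeR called 11.4% higher on average, 9.72% in clean mice and 6.24% in dirty mice. In dirty mice 136 of the 545 rows had an unadjusted p under 0.05. The summed level of the 10 listed miRNAs, scaled to library totals, was 1431 to 2895 CPM in Dirty_VM and 1094 to 2205 CPM in Dirty_TN. It was 1318 to 2978 CPM in Clean_VM and 1105 to 1460 CPM in Clean_TN. Without miR-122-5p it was 267.3 to 343.5 CPM in Dirty_VM, 203.9 to 285.6 CPM in Dirty_TN, 211.3 to 320.0 CPM in Clean_VM and 190.1 to 250.7 CPM in Clean_TN. The erythroid miR-144-3p was at 0 in 6 of 11 libraries, and miR-126a-5p and miR-145a-5p were at 0 in Dirty_TN 1. Their part in the differences of the members was not tested.

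Dirty was also set against clean within each subset, to ask how the environment bears on the cluster. No row of the 545 passed in VM cells, in TN cells or averaged over them by edgeR, so 0% of rows and 0 of 11 member rows were called in each. At an unadjusted p under 0.05 there were 81, 38 and 28 rows, of which 3, 0 and 0 were members, and DESeq2 called 19, 3 and 1 rows and limma-voom 1, 0 and 1. In VM cells miR-17-5p had a log2 change of 0.72 ± 0.25 (SE, edgeR adjusted p = 0.201) and miR-20a-5p one of 0.90 ± 0.29 (adjusted p = 0.201). The mir-92a-1 row of miR-92a-3p had -0.33 ± 0.17 (adjusted p = 0.424) and the mir-92a-2 row -0.50 ± 0.20 (adjusted p = 0.244).

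The library values behind these were apart although the test was not passed. Both miR-17-5p and miR-20a-5p had all Dirty_VM libraries above all Clean_VM libraries, where 12.1% of all rows did. Both rows of miR-92a-3p had all Dirty_VM libraries below all Clean_VM libraries, where 8.99% of all rows did. DESeq2 called miR-20a-5p in this comparison, at a log2 change of 0.85 (adjusted p = 0.0491). With edgeR fitted to the VM libraries alone, miR-20a-5p was called higher (0.88, adjusted p = 0.0377) and the mir-92a-2 row of miR-92a-3p lower (-0.53, adjusted p = 0.0471). In that fit 18 of all rows were called. The count of member rows called moved from 0 under 3 of 12 other settings, and with no library left out. By depth, miR-20a-5p had a log2 change of 0.40 among the shallow and 1.22 among the deep libraries, passing in neither. The 4 member rows that were apart compare with 21.1% of all rows apart in either direction. In TN cells libraries were apart in 3 member rows, against 23.3% of all rows, with 1 row that was higher in dirty mice, miR-17-3p (14.3% of all rows), and 2 that were lower, miR-18a-3p and miR-19a-3p (8.99% of all rows). Averaged over both subsets, no member was apart in the same direction in each, where 1.1% of all rows were.

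The environment comparisons and the VM against TN comparisons share their libraries, Clean_VM above all, so they are not separate evidence on miR-17-5p, miR-20a-5p or miR-92a-3p. No row of the 545 passed the test of the difference between environments, or 0%, and no member did; 93 rows had an unadjusted p under 0.05, of which 1 was a member, miR-20a-5p. DESeq2 called 41 rows for that difference and limma-voom 0, none of them a member.

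Ratios of members within a library need no scaling between libraries. Counts of miR-92a-3p on the mir-92a-1 row were 149.8, 201.4 and 157.5 times those of miR-17-5p in Dirty_VM and 196.4, 237.0 and 101.9 times in Dirty_TN. They were 256.4, 357.0 and 510.1 times in Clean_VM and 137.6 and 175.9 times in Clean_TN. Every Clean_VM library lay above the other 8 libraries. The ratio is formed from rows that were themselves apart in clean mice, in opposite directions, so it is not separate evidence. How often ratios of other rows do the same was not computed. The ratio of miR-20a-5p to miR-17-5p, which share a seed, stayed between 1.34 and 2.37 in all 11 libraries.

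**Figure D4:**
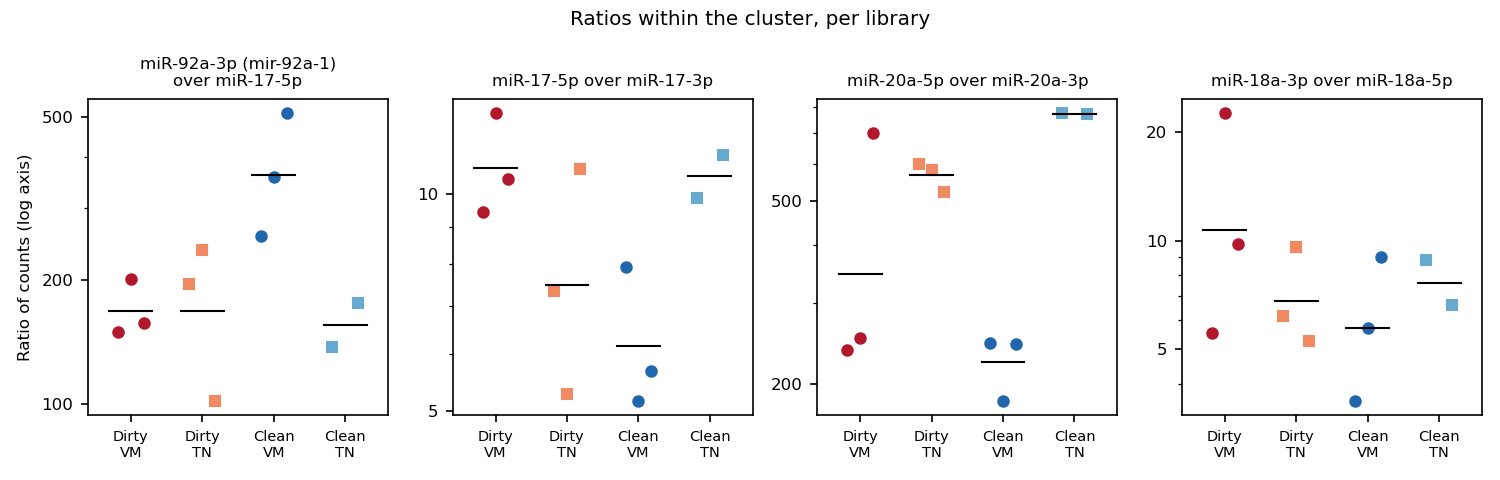
Points are ratios of counts per library on log axes, with a bar at the geometric mean of the group; arm ratios use counts plus 0.5. In Clean_VM the ratio of miR-92a-3p to miR-17-5p runs from 256.4 to 510.1 against 137.6 and 175.9 in Clean_TN, and miR-18a-3p exceeds miR-18a-5p at least 3.59-fold in all libraries.

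The ratio of counts of the 5p and 3p strands differed between the hairpins; it compares unlike sequences, so it too is one of counts and not of molecules. miR-17-5p exceeded miR-17-3p by 5.17-fold to 12.9-fold, and miR-20a-5p exceeded miR-20a-3p by 184-fold to 774-fold. In miR-18a the order was the opposite, with 3.59 to 22.6 times as much of the 3p strand as of the 5p strand in every library. The partner of miR-92a-3p on the same hairpin, miR-92a-1-5p, made up 0.0103% to 0.0238% of the counts of its arms. miR-19a-5p was counted in 1 library only, Dirty_VM 3, with 5 counts, and miR-19b-1-5p had at most 8 counts in a library.

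Among the 3p strands, miR-17-3p had 34.8, 25.9 and 35.7 CPM in Dirty_VM, against 38.6, 44.1 and 36.2 CPM in Dirty_TN. In Clean_VM it had 34.6, 40.1 and 26.5 CPM, against 34.6 and 24.4 CPM in Clean_TN. Its dirty groups were apart, with VM lower, and its clean groups overlapped. miR-18a-3p ranged from 22.02 to 32.61 CPM in Dirty_VM, 19.4 to 23.4 in Dirty_TN, 24.4 to 30.7 in Clean_VM and 24.7 to 25.3 in Clean_TN. Its lowest and highest library differed 1.68-fold, the least of the 11 member rows, and neither strand passed a test.

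miR-20a-3p had 2 to 21 counts per library, so its values carry large counting error. The 5p to 3p ratio of miR-20a was 236.6, 251.9 and 700.4 in Dirty_VM, against 600.4, 584.3 and 522.1 in Dirty_TN. It was 245.6, 184.0 and 244.7 in Clean_VM, against 774.2 and 770.9 in Clean_TN. Of the 6 VM libraries, 5 lay below all 5 TN libraries. Dirty_VM 3, the deep library of its group, lay among the TN libraries and above the deep Dirty_TN 1 and 3. The mean log2 ratio was 1.25 lower in VM cells over all libraries, and 0.77 lower among the deep libraries alone. Over all libraries the two-sided exact permutation test within environments gave p = 0.02 (adjusted p = 0.12 over 6 arm tests, 0.005 being the smallest p the design allows). The other 5 arm tests, of miR-17 and miR-18a in VM against TN cells and of all 3 hairpins in dirty against clean mice, gave p of 0.42 to 0.91 by the same exact test (adjusted p = 0.91).

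Across the 11 libraries the highest correlations between members were within seeds. Pearson's r of log2 CPM was 0.932 for miR-17-5p and miR-20a-5p, 0.859 for miR-19a-3p and the mir-19b-1 row of miR-19b-3p, and 0.778 for the rows of miR-92a-3p. Against the mir-92a-1 row of miR-92a-3p, r was -0.67 for miR-17-5p, -0.75 for miR-20a-5p and -0.665 for miR-19b-3p. The strands of 1 hairpin were less alike, with 0.1 for miR-17, 0.224 for miR-18a and 0.122 for miR-20a. These values describe 11 libraries that share groups, depth classes and scaling. The rows compared within a seed also carry fractional counts, from reads divided between rows. What this adds to r was not tested.

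**Figure D5:**
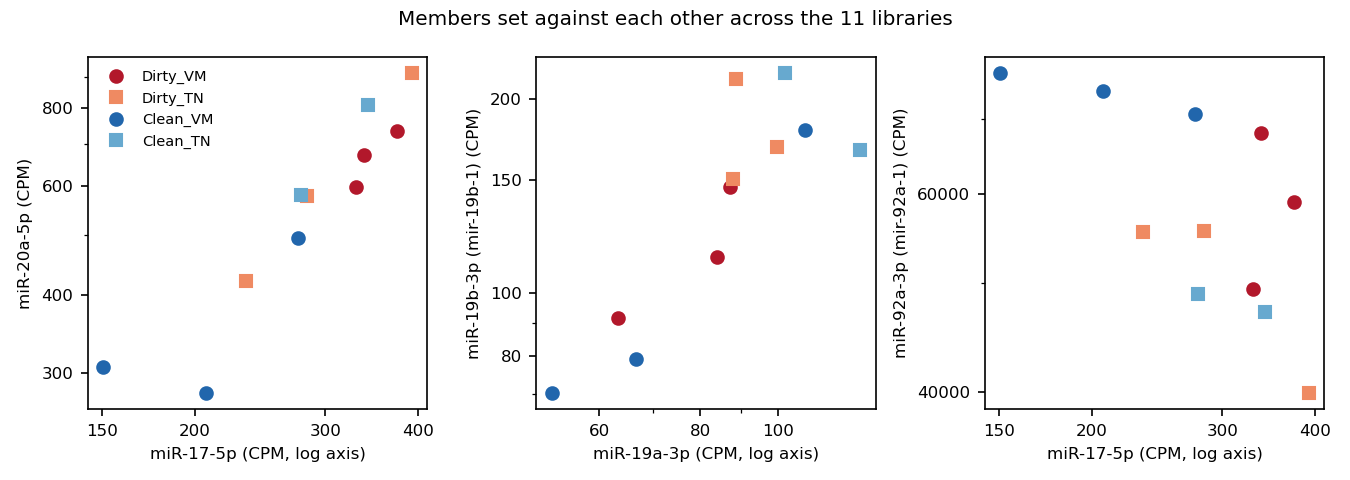
Each point is 1 of 11 libraries and both axes are levels in CPM on log scales. miR-20a-5p is higher where miR-17-5p is (r = 0.932), miR-19b-3p is higher where miR-19a-3p is (r = 0.859), and miR-92a-3p on the mir-92a-1 row is lower where miR-17-5p is higher (r = -0.67).

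Of 254 rows outside the cluster with a mean of 10 CPM or more, the 5 most like miR-17-5p over the 11 libraries were miR-186-5p (r = 0.894), miR-106a-5p (0.889), miR-20b-5p (0.882), miR-191-5p (0.863) and miR-107-3p (0.842). The 5 most like the mir-92a-1 row of miR-92a-3p were miR-151-3p (0.963), miR-1843a-3p (0.938), miR-1964-3p (0.935), miR-671-3p (0.93) and miR-139-3p (0.927). The median r over the 254 rows was 0.057 for miR-17-5p and 0.056 for miR-92a-3p.

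miR-106a-5p and miR-20b-5p belong to the paralog cluster on chromosome X and carry the seed of miR-17-5p. Their sequences are shown because they nearly match a member: miR-106a-5p differs from miR-17-5p by U10A, and miR-20b-5p from miR-20a-5p by U1C and U10C, with the base of the member first.
miR-106a-5p: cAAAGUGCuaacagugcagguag
miR-20b-5p: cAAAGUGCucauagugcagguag
Fractional counts stood on miR-17-5p in 10 of 11 libraries and on miR-20a-5p in 9, so some of these reads were divided between rows in a way the sources used here do not give, and the levels are uncertain to that extent.

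miR-106a-5p averaged 55.9 ± 13.1 CPM in Clean_VM (SD, n = 3) and 112.5 ± 27.9 CPM in Clean_TN (n = 2), and fell by 1.02 ± 0.30 (SE, edgeR adjusted p = 0.0328). In dirty mice it averaged 95.7 ± 8.46 CPM in Dirty_VM and 109.9 ± 38.3 CPM in Dirty_TN (SD, n = 3 each), a log2 change of -0.20 ± 0.27 (SE, edgeR adjusted p = 0.713). miR-20b-5p had -0.82 ± 0.28 in clean mice (adjusted p = 0.0568) and 0.15 ± 0.25 in dirty mice (adjusted p = 0.777). The difference between environments was 0.81 ± 0.40 for miR-106a-5p (SE, edgeR adjusted p = 0.308) and 0.97 ± 0.37 for miR-20b-5p (adjusted p = 0.228), of the same sign as for miR-17-5p and miR-20a-5p and likewise not passing.

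Of the 16 miRNAs of the miR-106b-25 and miR-106a-363 paralog clusters, 14 were tested. On average over dirty and clean mice none was called higher and 1 lower, miR-106a-5p by 0.61 ± 0.20 (SE, edgeR adjusted p = 0.0414). In clean mice edgeR and limma-voom called 0 higher and 1 lower, for edgeR the same miRNA, and DESeq2 2 lower. In dirty mice none passed by edgeR or limma-voom and 1 by DESeq2, lower, while 2 had an unadjusted p under 0.05 by edgeR. The 1 of 14 called by edgeR on average and in clean mice was 7.14%, against 23.7% and 17.4% of the 545 rows. In dirty mice edgeR called 12.1% of the 545 rows, and 136 had an unadjusted p under 0.05. The median log2 change of the 14 paralog miRNAs was -0.03 on average, against 0.09 over all rows. By seed, all 4 tested non-members with AAAGUGC (miR-106a-5p, miR-106b-5p, miR-20b-5p and miR-93-5p) had averaged changes below 0. All 4 with AUUGCAC (miR-25-3p, miR-32-5p, miR-363-3p and miR-92b-3p) had changes above 0, at 0.12 to 0.27, with none called. The median of all rows was also above 0, at 0.09. The split did not hold within both environments. With AAAGUGC, all 4 were below 0 in clean mice, and 2 were above and 2 below 0 in dirty mice. With AUUGCAC, 3 were above and 1 below 0 in either environment, miR-25-3p having -0.02 in dirty mice and miR-363-3p -0.07 in clean mice.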

How the data were processed

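The values are expected counts, that is, estimated counts per mature miRNA and hairpin as the authors deposited them, with 88.7% of values whole to within 0.001. The submitters' processing notes name mm10; the aligner, the counter and the handling of reads that match several hairpins are not given in the sources used here. Per the labels' protocols, 10000 sorted cells of over 95% purity went into Trizol, and 60 to 100 ng of RNA entered the NEBNext Small RNA kit, which gave inserts of about 18 to 35 bp.

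Of the 2128 rows, 120 that repeated a name and its values were dropped and 2008 were kept. Counts were rounded, filtered with filterByExpr on the 4 groups (545 rows left) and fitted over all 11 libraries with 1 mean per group by edgeR 4.0.16 (TMM, robust quasi-likelihood) in R 4.3.3. Tests are two-sided, with Benjamini-Hochberg adjustment over the 545 rows and a threshold of 0.05. The SE of a log2 change is its size over the root of the F statistic. The procedure was tested on simulated data. Arm ratios are log2 of 5p over 3p counts, each plus 0.5, compared by exact permutation within environments or subsets (200 relabellings). Libraries were not copies of each other: chi-square per degree of freedom between replicates was 42.2 or more.

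Alternatives were DESeq2 1.42.0, limma-voom (limma 3.58.1), DESeq2 size factors, library totals, no filter beyond 1 count, 10 CPM in 2 libraries, summed rows, 2 replicate blocks, the depth class as a term or a split, only the groups compared, and each library left out. All 9 members and their rows are named whatever their values, as are called or partner miRNAs of the listed paralogs and the 5 rows most like miR-17-5p and miR-92a-3p. Members, lists and alternatives were chosen with earlier results of these data known. Figures were drawn with matplotlib 3.10.9.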

Additional observations from a re-analysis of the deposited data

How the results depend on the processing

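Of the values recomputed under alternatives, 927 kept their direction, their side of the threshold or their size, 33 lost and 35 gained a call, 32 changed sign and 26 counts moved by more than 1.5 times; causes were not tested. Whether replicate numbers pair the libraries could not be settled, because the correlations followed depth class. Same-numbered libraries correlated at -0.554 to 0.416 after subtraction of group means, 6 of 15 pairs over 0.1. Within an environment, same-numbered pairs of the same depth class had 0.238, 0.254 and 0.416, and those of different depth -0.463 and -0.263. Differently numbered pairs of the same depth class and environment had 0.263, 0.413, 0.434 and 0.463. With the replicate number as a block, 2 member rows passed in VM against TN cells on average and 0 in clean mice; with a block within each environment 3 passed on average and 3 in clean mice, all lower. Neither block kept the call of miR-92a-3p, averaged or in clean mice; the 3 were miR-19a-3p and both rows of miR-19b-3p on average, and miR-20a-5p and both rows of miR-19b-3p in clean mice. The other comparisons had 0 with either block.

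Against 3 member rows on average, 1 passed with rows summed and 0 to 4 with 1 library left out of a group of 3. Of all rows, 125 passed with rows summed and 101 to 145 with 1 library so left out, against 129. Against 1 in clean mice, 2 passed with DESeq2, limma-voom or DESeq2 size factors (117, 95 and 102 of all rows). There were 3 without a filter beyond 1 count or with only the groups compared (108 and 125 of all rows). The filter of 10 CPM in 2 libraries gave 4 (98 of all rows) and the depth class as a term 0 (95 of all rows). With 1 Clean_VM library left out 0 to 5 passed (61 to 98 of all rows), against 95 of all rows in the main fit. Against 0 for dirty minus clean in VM cells, 1 passed with DESeq2 or without the filter and 2 with only the groups compared. Of all rows, 19, 16 and 18 passed in these settings, in that order. For the difference between environments, 0 to 2 passed with 1 library left out. The 2 were those without Dirty_TN 3, where 73 of all rows passed, against 0 with all libraries.

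The log2 changes that changed sign belong to rows that had not passed in that comparison. Among the shallow libraries they were, on average, miR-17-5p at 0.13, miR-18a-3p at -0.16 and miR-20a-5p at 0.059, in dirty mice miR-18a-5p at 0.10 and miR-18a-3p at -0.067, in clean mice miR-18a-3p at -0.24, and for dirty minus clean averaged over subsets miR-17-5p at -0.056. Among the deep ones they were miR-20a-3p at -0.043 on average and -0.45 in dirty mice, miR-20a-5p at -0.094 in dirty mice, miR-17-3p at -0.11 in clean mice and the dirty minus clean arm ratio of miR-18a at 0.092. Library totals gave -0.040 for miR-17-3p and -0.028 for miR-18a-3p in clean mice, and summed rows 0.12 for miR-92a-3p in dirty mice. With 1 library left out, miR-17-3p ranged from -0.25 to 0.076 on average and from -0.18 to 0.40 in clean mice, and miR-18a-3p from -0.060 to 0.34 in clean mice. In dirty mice miR-17-5p ranged from -0.0005 to 0.49, miR-18a-5p from -0.59 to 0.11, miR-20a-5p from -0.20 to 0.49 and the mir-92a-2 row of miR-92a-3p from -0.19 to 0.092. VM minus TN arm ratios ranged from -0.25 to 0.0096 for miR-17 and -0.35 to 0.15 for miR-18a, and dirty minus clean for miR-20a from -0.16 to 0.24.

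Groups of 2 or 3 libraries and a 6.24-fold range of depth limit what these comparisons can show. The shallow and the deep libraries alone leave 1 and 2 residual degrees of freedom. For miR-18a-5p and miR-20a-3p, with as few as 2 counts in a library, the counting error of a single value is large.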
